A study of Mus musculus with 6 samples.

Results

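Elavl4, which encodes the RNA-binding protein HuD, was lower in the striatum of HuD-KO mice than in wild-type (WT) mice, and its family member Elavl2, which encodes HuB, was higher. Both genes were chosen from values of these same arrays: they are the ELAV family members among the transcripts that the study listed as over 2-fold lower or higher in HuD-KO. They were measured by 4 probes, 1 for Elavl4 and 3 for Elavl2, of 60915 target probes on the array and of 1088 listed transcripts (1031 gene symbols, 298 transcripts listed as higher and 790 as lower). Because the same arrays chose the genes, their values are given as a description with no test.

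RNA was taken from the striatum, a deep forebrain region, of adult mice. HuD-KO mice carried the disrupted Elavl4 gene on both chromosomes (the labels write Elalvl4-/-), and the controls were WT littermates, with no treatment in either group. Each group had 3 arrays, numbered in the labels, which do not say whether each array was 1 mouse. The HuD-KO line was a gift to the study, and the deleted part of the gene, the mouse strain, the sex and the exact age are not given in the sources used here. The arrays were read in 1 colour and held probes for messenger RNAs and long non-coding RNAs.

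ELAV proteins bind AU-rich and U-rich stretches in messenger RNAs and alter their splicing, stability, transport and translation. Elavl1 (HuR) is made in nearly all cells, whereas Elavl2, Elavl3 (HuC) and Elavl4 are made mainly in neurons and are classical markers of neuronal identity. The neuronal members bind overlapping sets of targets, and HuD is best known for stabilizing messenger RNAs as neurons mature and extend processes.

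The probe sequences show which part of each transcript was read. All 4 were 60 bases long, lay on the minus strand of chromosome 4 and crossed an exon junction, so each was exonic. The transcript starts in the tables equalled RefSeq starts of GRCm38.p6 for 4 of 4 member transcripts. In the sequences the capitals ATG mark the start codon in the stretch that 2 Elavl2 probes share, and the ATG of the Elavl4 probe that aligns with it.
Elavl4 NM_001163399 probe: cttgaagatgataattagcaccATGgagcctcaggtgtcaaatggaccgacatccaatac
Elavl2 NM_010486 probe: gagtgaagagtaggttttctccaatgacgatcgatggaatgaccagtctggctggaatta
Stretch shared by the Elavl2 NM_207686 and NM_207685 probes: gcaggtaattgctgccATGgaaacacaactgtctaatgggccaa
Bases before it in the NM_207686 probe: gccgcagca
Bases before it in the NM_207685 probe: aatatgaggttgctgt

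The Elavl4 probe (chr4:110251472-110286469, a genomic span of 34998 bases that includes an intron) reads the start of the coding region of NM_001163399, at chr4:110203737-110286834, and the tables list it as also matching NM_010488. The brightest Elavl2 probe (chr4:91253532-91254140) belongs to NM_010486 and lies far downstream of both Elavl2 starts, 117915 bases in the genome from the start of its transcript and 2765 bases from its end. Of its 3 reading frames, 1 holds no stop codon. The tables give it no other match. NM_010486 and NM_207686 have the same start and end (chr4:91250767-91372055), and NM_010486 is 39 bases longer.

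The other 2 Elavl2 probes cross from alternative first exons into a common exon. They share 44 of their 60 bases, with the start codon at base 17 of that stretch. In front of it lie 9 bases in the NM_207686 probe (chr4:91308805-91371899) and 16 bases in the NM_207685 probe (chr4:91308812-91399437). The NM_207686 probe also holds 7 bases after it. RNA from either start therefore holds most bases of both probes, and binding of RNA from 1 start to the probe of the other was not tested. NM_207685 begins at position 91399984, which is 27929 bases upstream of the start that NM_207686 and NM_010486 use. The NM_207686 probe is also listed as matching NM_010486, so it reads the nearer start for both transcripts.

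Within the coding bases that both genes' start probes hold, 25 of 35 bases (71.4%) were the same in Elavl4 and in the NM_207686 probe of Elavl2. The longest identical run between the Elavl4 probe and any Elavl2 probe was 7 bases. Between the genes, 18.8 Mb of chromosome 4 separate the farther Elavl2 start from the end of Elavl4.

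Elavl4 was read well above background in WT and not in HuD-KO. Its processed signal, the background-subtracted brightness in scanner units, was 233, 181 and 275 on the WT arrays and 11.3, 8.12 and 8.81 on the HuD-KO arrays. The scanner software marked it as well above background on each of the 3 WT arrays and on none of the 3 HuD-KO arrays. The highest HuD-KO array lay far below the lowest WT array. The lowest signal well above background lay between 14.7 and 18.8 on the 6 arrays, and the median of the negative control spots between 2.94 and 3.75, so the HuD-KO signals of Elavl4 fell between these marks.

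A level here is the log2 of the processed signal minus the 75th percentile of the same array. The Elavl4 level was -1.05 ± 0.33 (SD, n = 3) in WT and measured -5.92 ± 0.31 (SD, n = 3) in HuD-KO. Since HuD-KO gives only an upper limit, the change is a bound: the HuD-KO level of Elavl4 was at least 15.5-fold under that of WT (3.95 on the log2 scale), taking for each HuD-KO array the lowest level well above background. The error that the scanner software gives for the Elavl4 spot was 10.1% to 10.2% of the signal in WT and 31.4% to 47.4% in HuD-KO. Because the deleted part is not given, it is not known whether this probe lies inside it, and the probe reads the start of the transcript and says nothing of parts farther downstream.

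**Figure D1:**
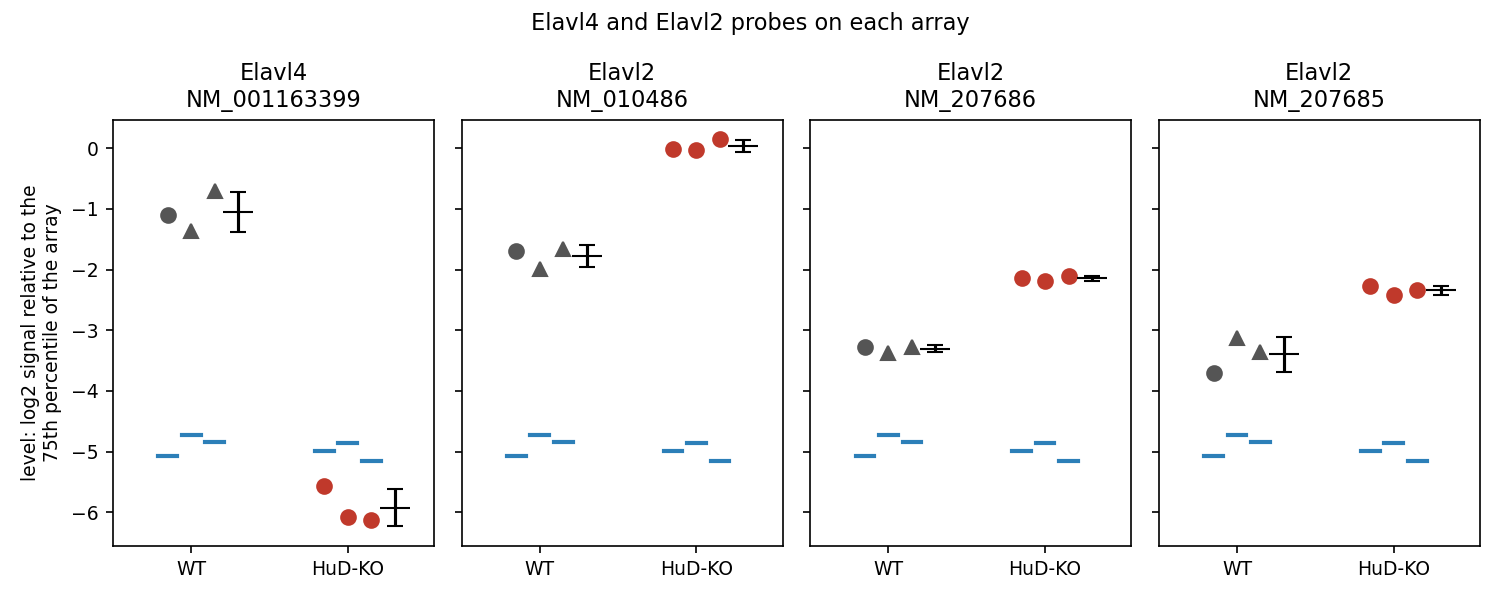
Each panel shows 1 probe, with its level (log2 signal relative to the 75th percentile of the array) on the 3 WT arrays (grey) and the 3 HuD-KO arrays (red), the mean ± SD beside them (black), and the lowest level well above background on each array (blue dashes). Circles are arrays on the slide row that holds both groups and triangles are WT arrays on the other row. Elavl4 lies under the blue dashes on the 3 HuD-KO arrays, and all 3 Elavl2 probes lie higher in HuD-KO than in WT with no overlap.

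Elavl2 was brighter in HuD-KO at all 3 probes. At the NM_010486 probe the signal was 528, 537 and 685 in HuD-KO and 154, 117 and 141 in WT. Every HuD-KO array lay above every WT array. The level was 0.04 ± 0.10 (SD, n = 3) in HuD-KO and -1.78 ± 0.18 (SD, n = 3) in WT, a difference of 1.81 or 3.52-fold. The gap between the lowest HuD-KO and the highest WT level was 1.63. Choosing the gene from these same arrays favours such a gap, so nothing is read from its size.

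The NM_207686 probe, at the nearer start, was dimmer, with a signal of 121, 120 and 144 in HuD-KO and 51.4, 44.8 and 46.3 in WT. Again the groups did not overlap. Its level was -2.14 ± 0.05 (SD, n = 3) in HuD-KO and -3.30 ± 0.06 (SD, n = 3) in WT, a difference of 1.16 or 2.24-fold, and the gap between the groups was 1.08.

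The NM_207685 probe, at the farther start, had a signal of 110, 102 and 122 in HuD-KO and 38.2, 53.0 and 43.6 in WT. The WT arrays spread more widely here than at the other Elavl2 probes and still did not reach the HuD-KO arrays. Its level was -2.34 ± 0.07 (SD, n = 3) in HuD-KO and -3.39 ± 0.29 (SD, n = 3) in WT, a difference of 1.05 or 2.08-fold, with a gap of 0.71. Both start-region probes read, on each WT array, at least 2.55 times the lowest signal well above background, and all 3 Elavl2 probes were well above background on 6 of 6 arrays. In whole-tissue RNA, more cells that express a gene and more RNA per cell cannot be told apart, for either gene.

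All 4 probes passed the filter on dim probes (well above background on 3 of 3 arrays of at least 1 group), Elavl4 only through the WT arrays. Of 47857 tested probes, 16.0% were called higher in HuD-KO and 14.4% lower at an adjusted p under 0.05 (limma, Benjamini-Hochberg), and 1.60% were higher and 4.33% lower by over 2-fold with an unadjusted p under 0.05. By both rules 3 of 3 Elavl2 probes were among those higher and 1 of 1 Elavl4 probe among those lower, which the choice of the genes had fixed and from which nothing is read. With normexp background correction the calls at adjusted p turned from 7651 higher and 6888 lower to 6502 higher and 8820 lower. Blocking the slide row lowered them to 139 and 144, and they came to 2995 and 3533 with the replicate block.

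By size, among the 298 transcripts listed as higher, the Elavl2 probes ranked 37 (NM_010486), 158 (NM_207686) and 217 (NM_207685). A larger rise than theirs was measured for 0.272%, 1.06% and 1.47% of the tested probes. The member just inside the 2-fold limit of the lists was the NM_207685 probe of Elavl2, at 2.08-fold. Probes just outside it carry no gene name in the tables, so no ELAV probe outside can be given.

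The Elavl2 probes did not rise by the same amount. On each array the NM_010486 level minus the NM_207686 level was 2.12, 2.16 and 2.25 in HuD-KO and 1.58, 1.39 and 1.61 in WT. This within-array difference was 0.65 larger in HuD-KO, on the log2 scale, with no overlap between groups. Against the NM_207685 probe it was 2.26, 2.39 and 2.49 in HuD-KO and 2.01, 1.15 and 1.69 in WT, larger in HuD-KO by 0.76, though by 0.37 when the slide row was blocked and 0.44 with array weights. Only the changes between groups can be read from these numbers, since the brightness of a probe also depends on its sequence.

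The 2 start-region probes rose by similar amounts, and with 44 bases in common they are not separate readings of the 2 starts. NM_207686 minus NM_207685 was 0.14, 0.23 and 0.23 in HuD-KO and 0.43, -0.24 and 0.09 in WT, so the groups overlapped, and the difference between their means, 0.11, was smaller than the SD of the WT arrays. It turned negative with the slide row as a block (-0.23), with array weights (-0.16) and without WT replicate 2 (-0.06).

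A constant amount of stray signal lowers the fold of a dim probe more than that of a bright one, so the unequal rise was set beside that quantity. An amount of 27.5 scanner units taken from every array would have made the NM_207686 rise equal to that of NM_010486, at 4.20-fold, and 27.3 units would have done so for NM_207685. The negative control spots had a median of 2.94 to 3.75 units. With that median subtracted, the within-array difference between groups was 0.62 for NM_207686 and 0.73 for NM_207685. Negative controls do not measure RNA that binds a probe without being its target. Stray signal as a source of the unequal rise was therefore not tested.

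**Figure D2:**
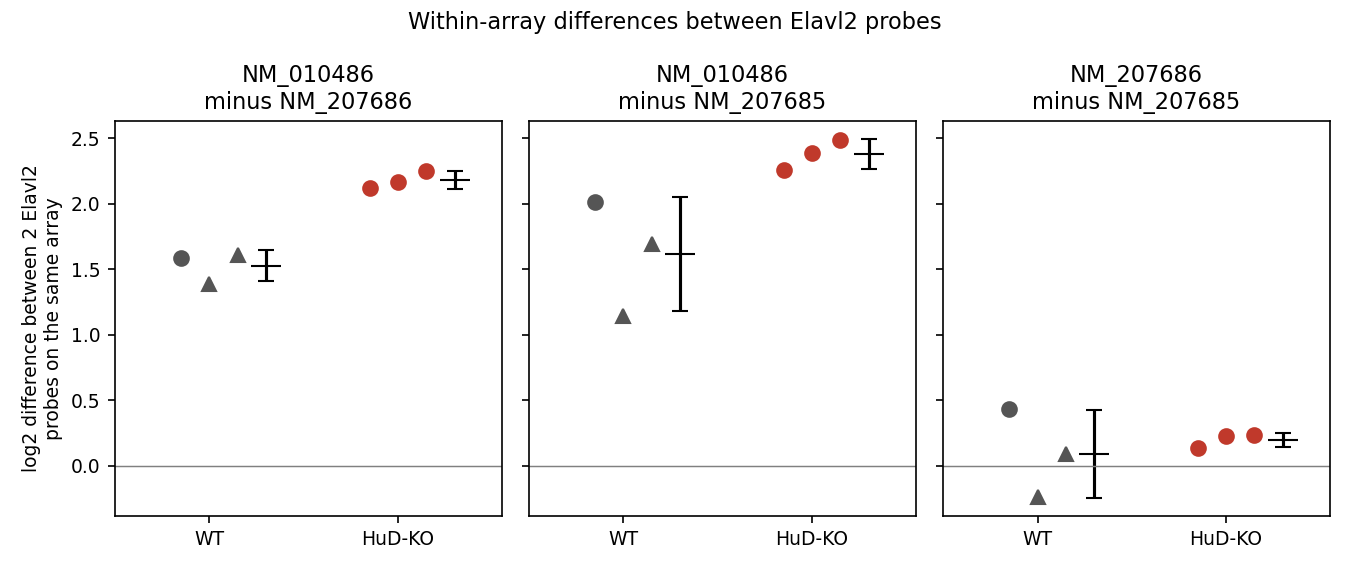
Each panel shows the log2 difference between 2 Elavl2 probes on the same array, for WT (grey) and HuD-KO (red), with the mean ± SD of 3 arrays (black). Circles are arrays on the slide row that holds both groups and triangles are WT arrays on the other row. NM_010486 minus each start-region probe is higher in HuD-KO with no overlap, and the values for the pair of start-region probes overlap between groups.

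The promoters of the 2 Elavl2 starts and of Elavl4 are shown as a description of the starts. Each is the 120 bases before the start on the minus strand, from RefSeq GRCm38.p6, with matches on either strand, in capitals, to the TATA box letters TATAAA, the CAAT box letters CCAAT, the GC box letters GGGCGG and the E-box letters CAGCTG.
Elavl2, farther start, chr4:91399985-91400104: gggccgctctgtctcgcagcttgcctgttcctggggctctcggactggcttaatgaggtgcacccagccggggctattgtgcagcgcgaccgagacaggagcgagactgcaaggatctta
Elavl2, nearer start, chr4:91372056-91372175: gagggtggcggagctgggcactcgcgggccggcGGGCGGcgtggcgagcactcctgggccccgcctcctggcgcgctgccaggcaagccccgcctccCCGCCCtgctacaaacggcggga
Elavl4, chr4:110286835-110286954: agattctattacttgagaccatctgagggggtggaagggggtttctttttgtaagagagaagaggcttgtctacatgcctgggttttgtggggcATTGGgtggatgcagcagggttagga

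Within the full 300 bases around each start (250 before and 50 after), the nearer Elavl2 start held 25 CG pairs, the farther start 10 and the Elavl4 start 4, against a median of 7 over 32817 promoter windows. The nearer Elavl2 window held the GC box and CAAT box letters, the farther one the E-box letters, and the Elavl4 window the CAAT box letters. Of all windows, 35.6% held the GC box letters, 37.4% the CAAT box letters, 16.3% the E-box letters and 13.6% the TATA box letters, which were in none of these 3 windows. The 2 Elavl2 starts differed in base composition and motif letters. How much each start was used was not tested, since the 2 start-region probes share 44 bases.

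The position of the arrays on the slide followed the groups in part. The 3 HuD-KO arrays and WT 1 lay on 1 row, and WT 2 and WT 3 on another. Within the row that held both groups, HuD-KO minus WT 1 was 1.73 for NM_010486, 1.13 for NM_207686 and 1.36 for NM_207685, and the Elavl4 bound was 3.91 on the log2 scale, or 15.02-fold. The same values come from the row as a block, and each kept its direction. Probes within 10 rows and columns of each member deviated between groups by 0.08 or less, and with that deviation removed the Elavl2 differences were 1.78, 1.08 and 1.05.

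The size of each value moved most with normexp, which changed the background model, the offset and the input signal together. With normexp and an offset of 50 the Elavl4 bound was 4.85-fold instead of 15.5-fold. The Elavl2 differences under the same correction were 1.45 (NM_010486), 0.57 (NM_207686) and 0.42 (NM_207685). The log2 values that the authors deposited, made by an unstated method, gave 1.85, 1.20 and 1.10. Leaving out any 1 array kept the Elavl4 bound between 13.7-fold and 17.2-fold.

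The other family members, Elavl1 and Elavl3, have no named probe in the tables and were not analysed here. The same holds for most genes of the lists that follow: a gene is counted only where the tables of listed transcripts name its probe, so these counts come from transcripts already chosen as over 2-fold changed in this contrast. The array held 60915 target probes and 1088 transcripts were listed, 72.6% of them lower in HuD-KO. Of 20 genes that bind AU-rich elements or act in the decay of such messenger RNAs, 1 was listed. This was Celf1, a regulator of splicing and decay. Its listed probe, for NM_001244891, passed background on each HuD-KO array and on no WT array. The probe was at least 1.43-fold higher in HuD-KO, at a level of -4.37, near the lowest level well above background. It did not pass at an adjusted p under 0.05 (limma, adjusted p = 0.0695) and does not give the level of other Celf1 transcripts. Of 35 other neuronal RNA-binding regulators, 1 was listed: Khdrbs3 (SLM2), a splicing regulator, with a level of 3.71 ± 0.20 in HuD-KO and 2.66 ± 0.10 in WT (SD, n = 3), a difference of 1.05.

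Of 25 genes whose messenger RNAs are described as HuD targets, 4 were listed, 2 higher and 2 lower. Neurod1, a neuronal transcription factor, was at 2.17 ± 0.23 in HuD-KO and 0.78 ± 0.53 in WT (SD, n = 3), a difference of 1.40. Serpini1, which encodes the protease inhibitor neuroserpin, differed by 1.11. Camk2a, a synaptic kinase, was lower, at 4.57 ± 0.21 against 6.05 ± 0.12 (SD, n = 3). The listed probe of Bdnf, which encodes a neurotrophin and has many alternative transcripts, passed background on each WT array and on no HuD-KO array and was at least 1.77-fold lower. Among all listed transcripts 298 were higher and 790 lower. HuD targets without a named probe were not seen, so these 4 give no direction for HuD targets as a group.

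The transcripts most like Elavl2 were picked by the root-mean-square difference of their 6 levels, each centred on its own WT mean, from those of the NM_010486 probe, over 893 listed probes well above background on 6 arrays. They were Twist2, a basic helix-loop-helix factor (0.12), 4930579G24Rik (0.12) and Ccdc24 (0.14). Unnamed probes were as close: 3 of the tested probes lay closer than Twist2. Their differences between groups were 1.76, 1.97 and 1.70.

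A pattern like that of Elavl4, with all 3 WT arrays and none of the HuD-KO arrays well above background, held for 223 probes, 50 of them listed. No other probe of the 223 had a higher bound than Elavl4, and their median bound was 1.82-fold. The bound depends on the WT level. By measured difference (-4.87), Elavl4 ranked 2 among the 790 transcripts listed as lower, and 4930522H14Rik measured a larger fall (-5.21), both with HuD-KO under background. The next named genes were 4930522H14Rik, at least 7.39-fold lower, Gm13547, at least 7.19-fold lower, and Itgal, an integrin chain of white blood cells, at least 5.93-fold lower.

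Of these, 4930522H14Rik (chr4:109505332-109531297) lies 672 kb from Elavl4 on the same strand. The listed transcripts within 1 Mb of Elavl4 were 2, this one and Eps15, an adaptor of endocytosis at chr4:109343056-109387816, with a level of -4.93 ± 0.43 in HuD-KO and -3.88 ± 0.26 in WT (SD, n = 3), well above background on 1 of 3 HuD-KO arrays. Between Elavl2 and Elavl4 the tables listed 11 transcripts, 9 lower and 2 higher in HuD-KO, so 81.8% were lower, against 72.6% of all listed transcripts. Whether a difference between the groups on this chromosome comes with the disrupted gene or with the DNA around it was not tested.

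Other differences between the groups moved with Elavl4 and Elavl2. The Y-linked genes Uty, Eif2s3y, Kdm5d and Ddx3y, the 4 listed of 10 sex-linked genes, were higher on all 3 HuD-KO arrays: their summed level (on a linear scale, as multiples of the 75th percentile) was 7.28 to 7.87 in HuD-KO and 0.23 to 0.26 in WT. Uty and Eif2s3y were well above background on each WT array too, and Kdm5d and Ddx3y on none. The labels give no sex, and genotype and sex cannot be told apart for either member.

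Markers of neighbouring tissue differed too. Of 10 markers of choroid plexus and ependyma, tissues of the ventricle beside the striatum, 4 were listed, all lower in HuD-KO (Kcnj13, Clic6, Prlr and Enpp2). Their summed level was 89.9 to 155 in HuD-KO and 234 to 318 in WT. Most of it came from Enpp2, at a level of 6.77 in HuD-KO and 8.03 in WT. Kcnj13, the next highest, was at 0.33 in HuD-KO and 3.28 in WT. Of 12 glial markers, 2 were listed, both lower (Mbp and Fgfr3). Their summed level was 4.14 to 4.86 in HuD-KO and 7.94 to 12.5 in WT, nearly all of it from Mbp. Fgfr3 was well above background on no HuD-KO array. Beside both lists, 72.6% of all listed transcripts were lower. Of 9 markers of cortical and hippocampal excitatory neurons, cells that also express ELAV genes, 3 were listed. Nrgn and Neurod6 were higher by 1.87 and 1.69, and Camk2a was lower. Their summed level was 80.9 to 92.0 in HuD-KO against 84.2 to 90.2 in WT, a sum in which opposite changes offset each other. Neurod6 was at a level of 5.92 in HuD-KO and 4.22 in WT, and Camk2a at 4.57 in HuD-KO and 6.05 in WT. The part of these cells in the Elavl2 rise was not tested. None of 12 markers of striatal projection neurons was listed, and since other probes carry no gene name, the labelled tissue could not be checked against them.

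**Figure D3:**
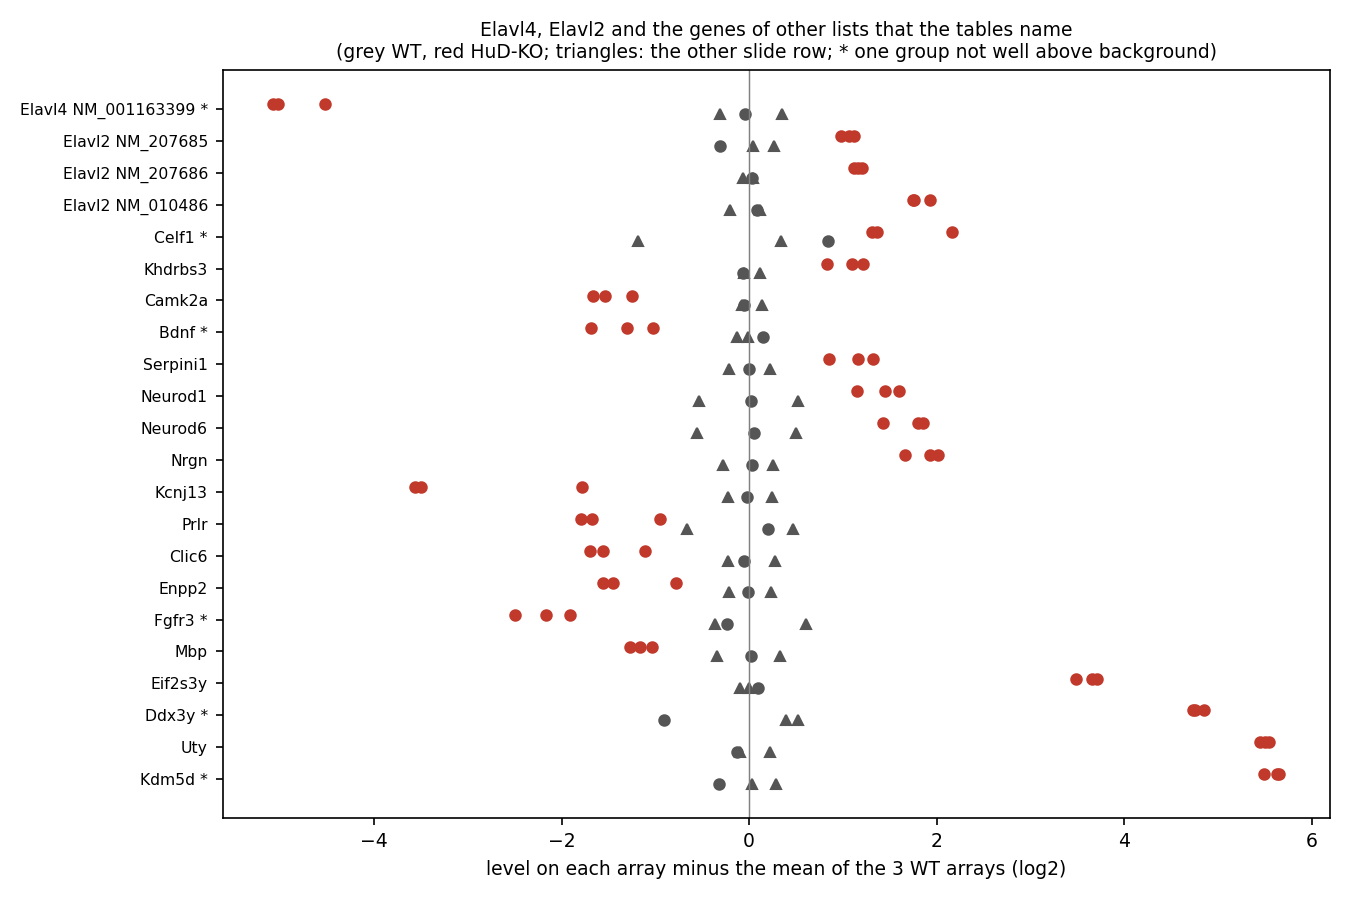
For each listed gene of the lists above, the level on each array minus the mean of the 3 WT arrays (log2) is shown for WT (grey) and HuD-KO (red), with circles for the slide row that holds both groups, triangles for the other row, and an asterisk where 1 group was well above background on no array. The Elavl2 probes lie above every WT array on every HuD-KO array, as do all the other genes shown that were listed as higher. Of the genes shown the 4 Y-linked ones lie farthest above WT.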

How the data were processed

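The authors deposited scanner files of 62939 spots per array, as intensity with the background subtracted, a spatial trend removed and dim spots set to a surrogate value (per the file headers, Feature Extraction 11.0.1.1, no normalization between arrays). They also deposited 2 tables of transcripts over 2-fold changed at an unadjusted p under 0.05, with log2 normalized values made by an unstated method. The tables' fold, p-value and FDR columns were not used. Per the labels, samples were depleted of ribosomal RNA, amplified from random and oligo(dT) primers, and Cy3-labelled.

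Levels are log2 of the processed signal minus the 75th percentile (446 to 615 units per array) over 60915 target probes. Of the target probes, 65 carried outlier marks and were left out, and 15 negative probes counted as controls. Tested probes (47857) were well above background on 3 of 3 arrays of a group. The share of spots above background was 77.8% to 82.0%, and no target probe was saturated. The number of arrays, 3 per group, limits the precision. limma 3.58.1 (R 4.3.3) compared HuD-KO with WT over all tested probes, for counts of calls and the call of each listed gene, and was tested on simulated data. Its p-values measure the spread between these samples, which may be technical. Figures were drawn with matplotlib 3.10.9 from tables computed in Python 3.11.15 (numpy 2.4.6, pandas 2.3.3).

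The members and gene lists were chosen with earlier results of these data known. Genes named are the members, listed genes of the fixed lists, the 3 closest to Elavl2 by root-mean-square difference, the 3 with the highest bound in the pattern of Elavl4, and the listed genes near Elavl4, added after values were seen. A further marker of excitatory neurons is not reported here. Alternatives were the percentile over detected probes, quantile normalization, normexp (offset 50, on the median spot signal), deposited log2 values, other filters, the methods' t-test, array weights, replicate and slide-row blocks and leaving out each array. Neighbourhood centring, subtraction of negative controls, and the settings for probe pairs and 2-fold counts were added after seeing the data. Probe sequences and coordinates come from the deposited tables, which name no build. Promoters come from RefSeq GRCm38.p6.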

Additional observations from a re-analysis of the deposited data

How the results depend on the processing

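The direction of the Elavl4 bound and of the 3 Elavl2 differences was the same under every alternative run, and the size moved most with normexp. The filters on dim probes and the replicate block cannot change these values, so they say nothing of how firm the values are. With normexp the Elavl4 bound was 2.28 on the log2 scale and the Elavl2 differences were 1.45 (NM_010486), 0.57 (NM_207686) and 0.42 (NM_207685). That setting changed the background model, the offset and the input signal together, and which of them moved the values was not tested. NM_207686 also moved by more than its replicate SD of 0.05 with neighbourhood centring (1.08) and with negative controls subtracted (1.22). NM_207685 moved to 1.30 with array weights and to 1.36 with the slide row blocked. Leaving out 1 array gave an Elavl4 bound of 3.78 to 4.11 and Elavl2 differences of 1.71 to 1.87 (NM_010486), 1.13 to 1.18 (NM_207686) and 0.90 to 1.19 (NM_207685). The within-array difference between NM_207686 and NM_207685 turned negative with array weights (-0.16), with the slide row blocked (-0.23) and without WT replicate 2 (-0.059), and ranged from -0.059 to 0.28 with 1 array left out. Over the settings that keep all arrays or block the slide row, the extra rise of NM_010486 ranged from 0.60 to 0.88 against NM_207686 and from 0.37, within the slide row, to 1.03 against NM_207685.

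Counts over all probes depended more on the setting. Probes higher in HuD-KO numbered 7651, 12743 with array weights, 2995 with the replicate block, 139 with the slide row as a block, and 3439 to 7039 with 1 array left out. Probes lower numbered 6888, 3533 with the replicate block, 144 with the slide row as a block, and 3607 to 6579 with 1 array left out. With normexp, 323 probes were over 2-fold higher and 1057 over 2-fold lower, instead of 765 and 2072. The counts without HuD-KO replicate 1 were 3439 and 3856, without HuD-KO replicate 2 they were 4376 and 4578, without HuD-KO replicate 3 they were 3923 and 4070, and without WT replicate 1 they were 3459 and 3607. The deviations from the group mean of arrays with the same number had correlations of -0.03, -0.06 and -0.13. With 3 arrays per group, such correlations cannot show whether the numbers pair the arrays. In this balanced design the replicate block cannot change the member differences (1.81, 1.16 and 1.05). Array weights by the default method did not converge and were estimated gene by gene, which gave WT replicate 1 a weight of 5.0.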
